A study of Rattus norvegicus with 113 samples.

Results

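The comparison described here sets the hippocampus of sham-operated rats against that of naive rats, both taken 6 months into a study of chronic traumatic brain injury (TBI). Its members are the 4 arrays labelled Hippocampus Sham 6mo post injury and the 4 labelled Hippocampus Naive 6mo, chosen by those labels alone, out of 113 arrays in the whole study. The study followed gene expression in the hippocampus and cortex of naive, sham-injured and TBI rats from 24 hr to 12 months on Agilent rat arrays with 1 dye. All rats were adult male Sprague-Dawley, and each array holds the RNA of 1 rat. Naive rats received no anesthesia and were left unhandled, so that they give the baseline. Sham rats went through the anesthesia and the surgical preparation for a parasagittal fluid percussion injury without the percussion itself. TBI rats of the same interval, which received a severe percussion, are given beside them as a further group of 4 arrays. The question the comparison answers is what had differed in the hippocampus 6 months after surgery alone. Naive and sham rats differed both in anesthesia and in surgery, and these cannot be told apart.

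Sham surgery opens the scalp and skull under anesthesia, and it can leave traces of its own in glia and blood vessels. The hippocampus holds dense layers of glutamatergic pyramidal and granule neurons together with GABAergic interneurons, and the transcripts of their synapses, ion channels and pumps make up much of what can be measured in it. Microglia are the resident immune cells of brain tissue. At rest they carry low amounts of the MHC class II proteins that present antigen to T cells, and they gain them on activation.

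The members were not all alike, which bears on every result below. Values are given on 2 scales: the log2 intensity minus the median of all probes of the array, and the log2 intensity minus the 75th percentile of the array. The naive arrays had 48.9%, 72.5%, 59.2% and 41.2% of their probes well above background, and the sham arrays 46.6%, 53.2%, 56.8% and 51.6%. Naive replicate 2 stood highest, and 38.3% of its control spots for added reference RNAs were well above background. On the other 11 hippocampal arrays of 6 months that share was 2.41% or less. Its 75th percentile lay 3.05 above its median on the log2 scale, against 4.01, 3.82 and 3.66 for the other naive arrays and 3.77, 3.76, 3.72 and 3.75 for the sham arrays. So the choice of scale moves this array more than any other of the 8. No difference between the groups was detected in the share of probes above background (sham minus naive -3.42 percentage points, two-sided exact permutation p = 0.686) or the distance between the percentiles (0.118, exact permutation p = 0.743), with 0.0286 the smallest p that 4 against 4 arrays allow. The spread within the naive group, as the median SD over 18487 probes, was 0.46 with the median and 0.16 with the 75th percentile, against 0.13 on either scale in the sham group. Naive replicate 3 stood apart in another way, with high immune transcripts that are described further on. All 8 arrays shared 1 slide, but the naive arrays filled its first row and the sham arrays its second, so that row and group cannot be told apart. In bulk tissue, fewer cells of a type and less RNA per cell cannot be told apart either.

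**Figure D1:**
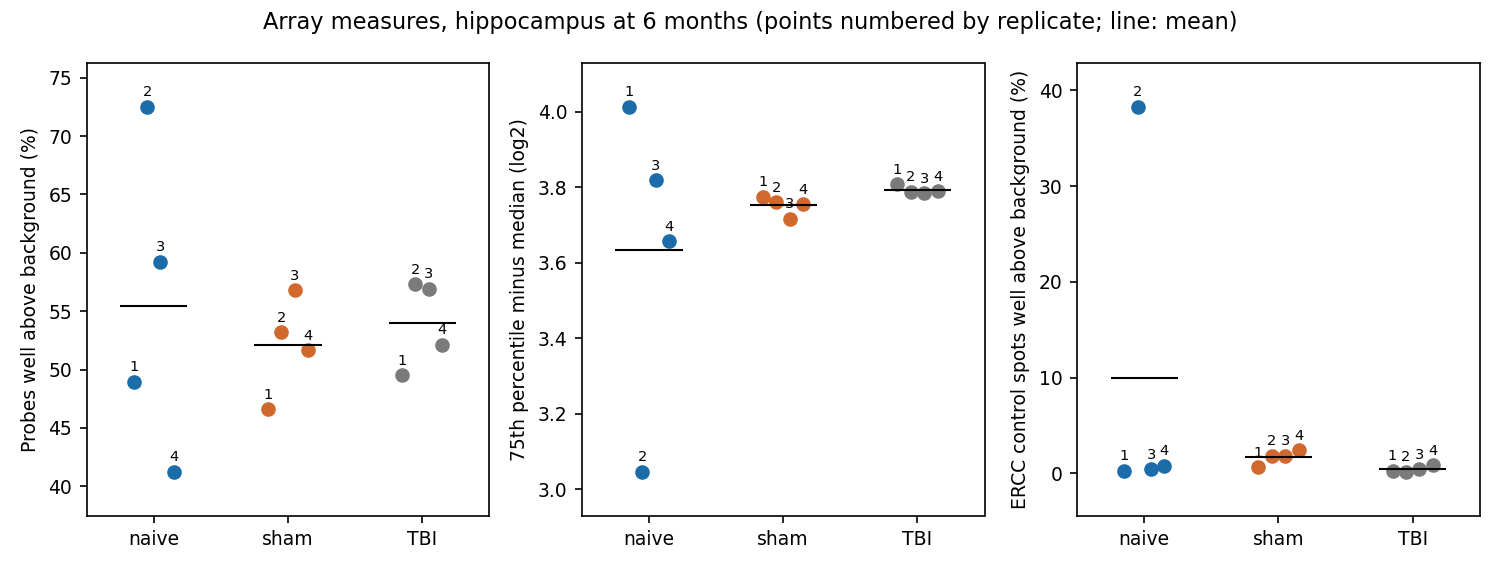
Measures of each 6-month hippocampal array, from left the percent of probes well above background, the log2 distance from the median to the 75th percentile, and the percent of reference RNA control spots well above background. Points are arrays, numbered by replicate, and lines are group means. Naive replicate 2 has 72.5% of probes and 38.3% of control spots well above background, and its distance of 3.05 is the lowest shown.

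Between sham and naive rats, 728 of 20990 tested probes passed an adjusted p of 0.05 in limma with median scaling (3.47%), of which 688 were higher and 40 lower in sham rats. With the 75th percentile 3865 probes passed (18.4%), of which 1726 were higher and 2139 lower. Both scalings called 652 probes with the same sign (3.11%), 615 of them higher and 37 lower, and these made up 89.6% of the probes called with the median. The change of scale shifted every difference by -0.12. When a 1.4-fold change and an unadjusted p of 0.05 were asked for, as in the methods of the study, 2828 probes (13.5%) passed with the median, 2295 of them higher, and 2307 (11%) with the 75th percentile, 1296 of them higher. Leaving out naive replicate 2 raised the median-scaled count to 2864 and turned its balance, with 1086 higher and 1778 lower, and leaving out naive replicate 1 raised it to 2083. It was 385 without naive replicate 4, 370 without sham replicate 2 and 392 without sham replicate 4. In what follows each gene is read from 1 probe, which gives 10236 named genes, of which 266 (2.6%) passed with the median and 1653 (16.1%) with the 75th percentile. Of these, 204 genes (1.99%) passed with the same sign on both scales and had all 4 sham arrays on 1 side of all 4 naive arrays, 195 higher and 9 lower in sham rats. Over all probes, the 2 groups did not overlap in 7.49% with the median and in 23.2% with the 75th percentile. In the background, 2.45% of genes were called higher and 0.147% lower with the median, and 7.59% and 8.56% with the 75th percentile. The genes named below were drawn from those 204, unless stated otherwise.

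The 5 genes with the largest rises are described first. Tbr1, which encodes a T-box transcription factor of glutamatergic neurons, read -0.69, -0.29, -0.60 and -1.06 in the naive arrays and 0.73, 0.58, 1.91 and 1.31 in the sham arrays, as log2 over the array median. All sham arrays lay above all naive arrays, by 1.79 ± 0.26 (SE, n = 4 and 4; adjusted p = 0.00029), although the probe was well above background in only 2 of 4 naive arrays. Egr1, an immediate early transcription factor that neuronal activity induces, read 1.28, 0.61, 1.18 and 0.50 in naive rats and 3.06, 2.84, 2.21 and 2.55 in sham rats. The groups did not overlap, as the naming rule asked, and the rise was 1.77 ± 0.24 (adjusted p = 0.00023), or 3.42-fold. This probe was well above background in 3 of 4 naive arrays. Cacna1a, the pore-forming subunit of the P/Q-type calcium channel that triggers transmitter release, read 1.63, 1.18, 1.19 and 0.75 against 3.03, 3.11, 2.56 and 2.50 in sham rats. It rose by 1.61 ± 0.23 (adjusted p = 0.00026), while its other tested probe, at 0.72, did not pass. Each of these probes was well above background in 3 of 4 naive arrays. Srgap3, a GTPase-activating protein of neuronal processes, rose by 1.57, and of its 3 probes 2 passed with the differences ranging from 0.09 to 1.94. Prrt1, an auxiliary subunit of AMPA receptors, rose by 1.51 ± 0.22 (adjusted p = 0.00036).

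Among the other genes at the top of the list, Dnm1 encodes the dynamin that pinches off synaptic vesicles. It read 5.66, 4.94, 4.84 and 4.96 in naive rats and 6.40, 6.55, 6.30 and 6.55 in sham rats, without overlap, and rose by 1.35 ± 0.21 (adjusted p = 0.00076). Borcs5, a subunit of the complex that couples lysosomes to kinesin, read 5.23, 4.01, 4.48 and 4.12 in naive rats and lay between 5.82 and 5.88 in all 4 sham rats. Its rise of 1.39 came with the narrowest sham group of the genes named here, at an SD of 0.03. Fzr1, an activator of the anaphase-promoting complex that is also present in neurons, rose by 1.43. Bcl2l1, an inhibitor of apoptosis, rose by 1.39, Bicra, a subunit of a BAF chromatin remodelling complex, by 1.38, and Dnajc16, a co-chaperone, by 1.4. These 3 genes were dim in naive rats, where 3, 3 and 2 of 4 arrays were well above background.

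**Figure D2:**
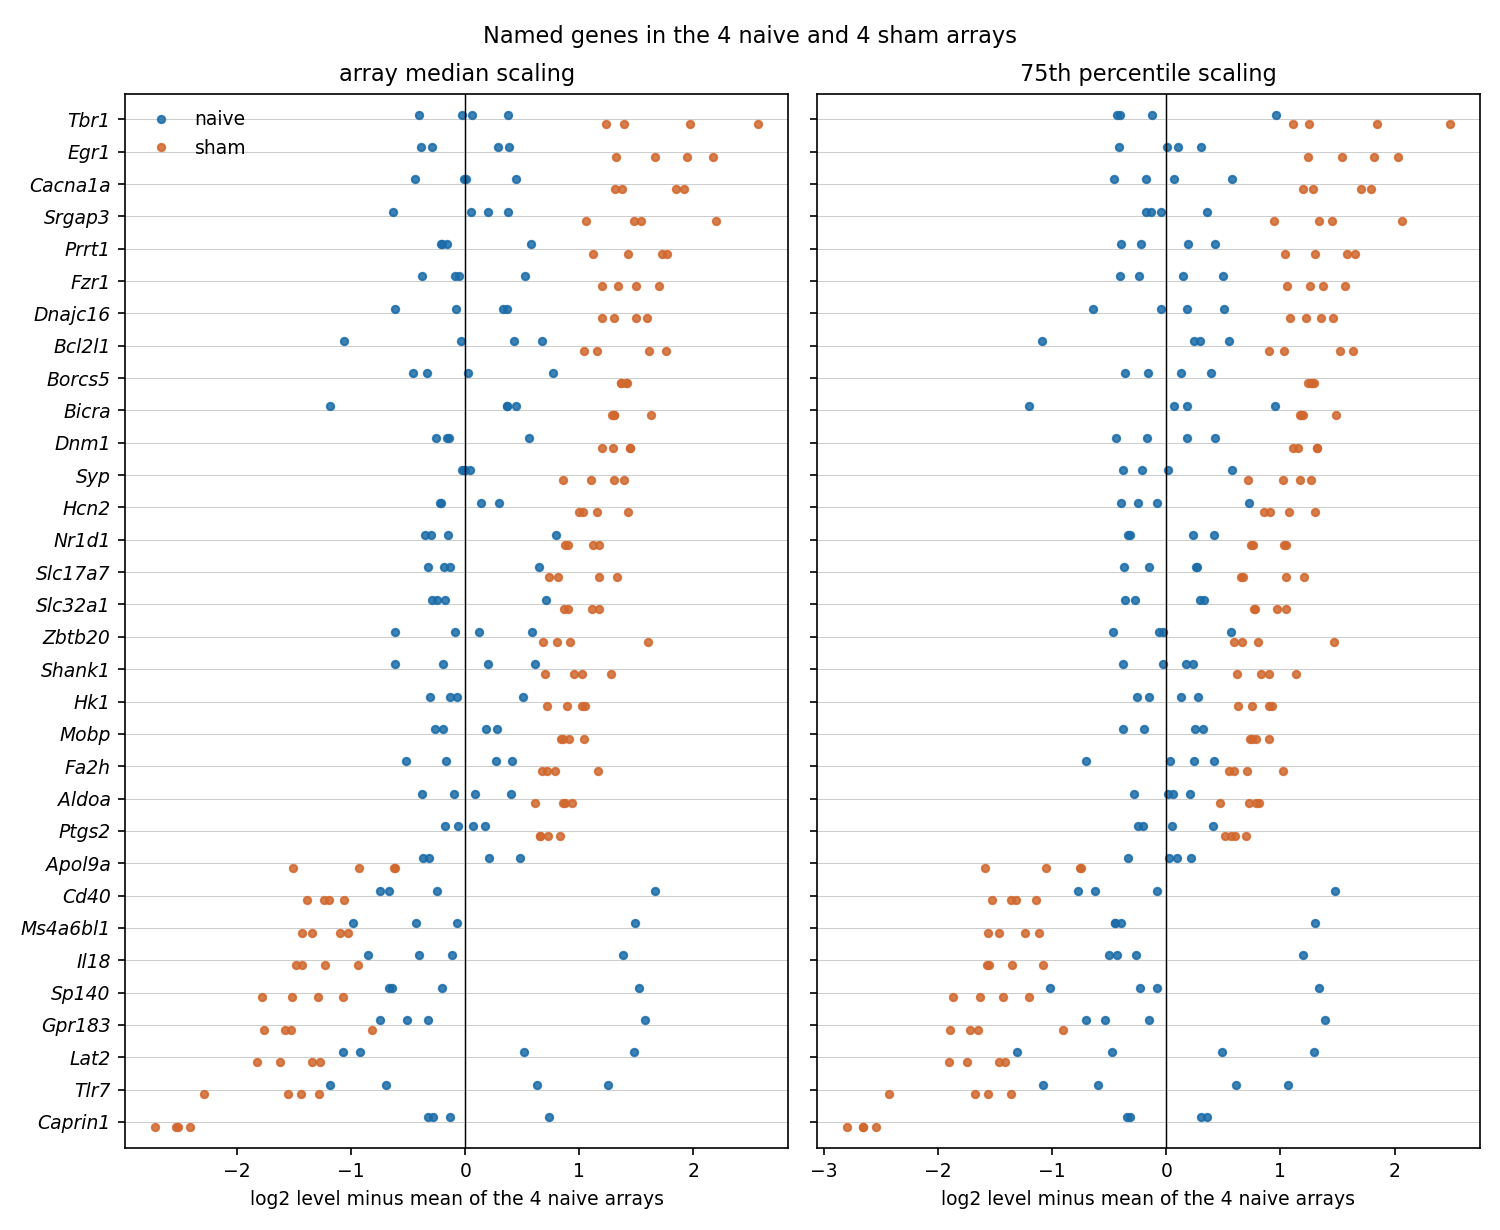
Level of 32 named genes in the 4 naive (blue) and 4 sham (orange) arrays of the hippocampus at 6 months, as log2 level minus the mean of the naive arrays, with median scaling on the left and 75th percentile scaling on the right. Each point is 1 array. By the naming rule, the sham arrays lie above all naive arrays for the genes that rose and below them for the 9 that fell. For Cd40, Ms4a6bl1, Il18, Sp140 and Gpr183, 1 naive array lies far to the right of the others.

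Taken as groups, the lists of neuronal genes leaned upward. The list of synaptic vesicle and postsynaptic density genes had 28 tested members, of which 8 rose and none fell with the median, and 14 rose with the 75th percentile. The median difference over its members was 0.52, against 0.09 over all genes tested, and 0.40 against -0.03 with the 75th percentile. Without naive replicate 2, on the median scale, it was 0.33 against -0.10 over all genes, with 9 members up and 1 down, and without naive replicates 2 and 3 together 0.26 against -0.14, with 4 up. Syp, the synaptic vesicle protein synaptophysin, read 3.94, 3.93, 3.91 and 3.98 in naive rats and 4.80, 5.24, 5.05 and 5.33 in sham rats. It rose by 1.16 ± 0.21 (adjusted p = 0.00212), with the naive rats within 0.07 of each other on the median scale. Slc17a7, which loads vesicles with glutamate, rose by 1.01 and Shank1, a scaffold of the postsynaptic density, by 0.99, with all 3 of its probes called. The mean level of the list over the 75th percentile was 2.31, 2.30, 2.09 and 2.37 in naive rats and 2.71, 2.76, 2.59 and 2.65 in sham rats. All sham arrays were thus above all naive arrays on that scale. With the median the groups overlapped, and naive replicate 1, at 6.32, lay above sham replicate 3, at 6.31.

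Of 22 voltage-gated ion channel genes tested, 3 rose and none fell with the median, and 7 rose and 1 fell with the 75th percentile. Beside Cacna1a, they included Hcn2, a channel of the hyperpolarization-activated current, at 1.15 ± 0.20 (adjusted p = 0.00144). The median over the list was 0.40 with median scaling. Without naive replicate 2 it was 0.17, against -0.10 over all genes, and without naive replicates 2 and 3 together 0.06, against -0.14. Slc32a1, which loads vesicles with GABA, read 1.76, 0.76, 0.87 and 0.80 in naive rats and 2.16, 1.95, 1.91 and 2.22 in sham rats. It rose by 1.01 and was the member of 12 tested interneuron genes that passed with median scaling. Its probe was well above background in 3 of 4 naive arrays. None of 13 GABA receptor genes passed with the median, and 3 rose with the 75th percentile. One of 19 glutamate receptor genes, the NMDA receptor subunit gene Grin2a, passed with the median at 0.84, named here after its value was seen.

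The cell identity lists help to place these rises. Zbtb20, a transcription factor of hippocampal pyramidal and granule neurons, read 2.15, 1.61, 2.35 and 2.82 in naive rats and 3.04, 3.83, 2.91 and 3.15 in sham rats, and rose by 1.00 ± 0.24 (adjusted p = 0.0186). It was 1 of 2 called members of 15 in the hippocampal neuron list, the other being Neurod2, a neuronal differentiation factor, at 0.88 (named after its value was seen). Prox1 and Wfs1, which mark granule cells and CA1 neurons, were measured and had differences of 0.36 and 0.56 that did not pass. The list of cortical layer markers also holds Tbr1, which counts in all its values. Of its 8 tested genes 1 passed with the median and 2 with the 75th percentile, and all 8 differences were positive with the median. The list median was 0.54, or 0.33 without naive replicate 2 and 0.26 without naive replicates 2 and 3 together. Over all genes these medians were 0.09, -0.10 and -0.14. The summed intensity of the list, relative to the 75th percentile, ran from 13.4 to 15.1 in naive rats and from 15.9 to 17.3 in sham rats. On the median scale these sums overlapped. The list member Rorb was below the filter. Whether carried-over cortex had a part in the rise of Tbr1 was not tested.

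Other functions held single genes that rose. Ptgs2, the inducible cyclooxygenase, read 0.30, -0.05, 0.06 and 0.20 in naive rats and 0.78, 0.95, 0.78 and 0.85 in sham rats, and rose by 0.71. Its probe was well above background in 3 of 4 naive arrays. With Egr1, Ptgs2 was 1 of 2 called genes of 16 in the immediate early list. The median difference of that list was 0.40 with the median, 0.28 with the 75th percentile and 0.16 with the median without naive replicate 2. Over all genes these medians were 0.09, -0.03 and -0.10. Fos and Arc, which neuronal activity also induces, were measured at 0.17 and 0.54 without passing. Nr1d1, a repressor in the circadian clock, rose by 1.01, the only one of 12 clock genes to pass with the median. Hk1 and Aldoa, which act in glycolysis, rose by 0.92 and 0.82. They were the 2 called members of 14 in the hypoxia list, and its members Vegfa and Adm, at 0.34 and 0.36, did not pass. Mobp, a structural protein of myelin, rose by 0.91 ± 0.20 (adjusted p = 0.0103) with 2 of its 3 probes called, and Fa2h, which makes the hydroxylated lipids of myelin, rose by 0.84. The other 15 of 17 tested oligodendrocyte genes did not pass, among them Mbp at 0.08, and the median over the list was 0.08, or -0.11 without naive replicate 2 and 0.02 without naive replicate 3, against 0.09, -0.10 and 0.13 over all genes.

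The call of the ribosomal protein genes depended on the scale. None of 34 tested genes passed with the median, where all 34 differences were negative with a median of -0.31, and 32 fell with the 75th percentile, where the median was -0.43. Without naive replicate 2, 31 fell on the median scale as well, with a median of -0.57. Leaving out that array raised the median-scaled count over all probes from 728 to 2864. The mean level of the list over the 75th percentile was 6.59, 6.27, 6.49 and 6.42 in naive rats and 6.01, 6.01, 6.06 and 5.98 in sham rats, without overlap on that scale. On the median scale the groups overlapped, since naive replicate 2, at 9.32, lay below the sham arrays, at 9.73 to 9.79. The largest differences were those of Rps23 and Rplp1, at -0.78 and -0.69, both named after their values were seen. With the 75th percentile 14 of 37 genes of the mitochondrial respiratory chain also fell and 1 rose, with a list median of -0.20, while none passed with the median, or 6 fell without naive replicate 2. Of 26 proteasome genes 5 fell on that scale, and of 15 heat shock genes 4 fell and 1 rose. Over all genes 8.56% were called lower and 7.59% higher on that scale. The promoters of the genes that were higher with the 75th percentile had a median GC content of 63.0%, those of the lower genes 59.0% and those of all tested genes 61.0%, in the 300 bases around the start that RefSeq gives for 81.85% to 84.82% of them.

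**Figure D3:**
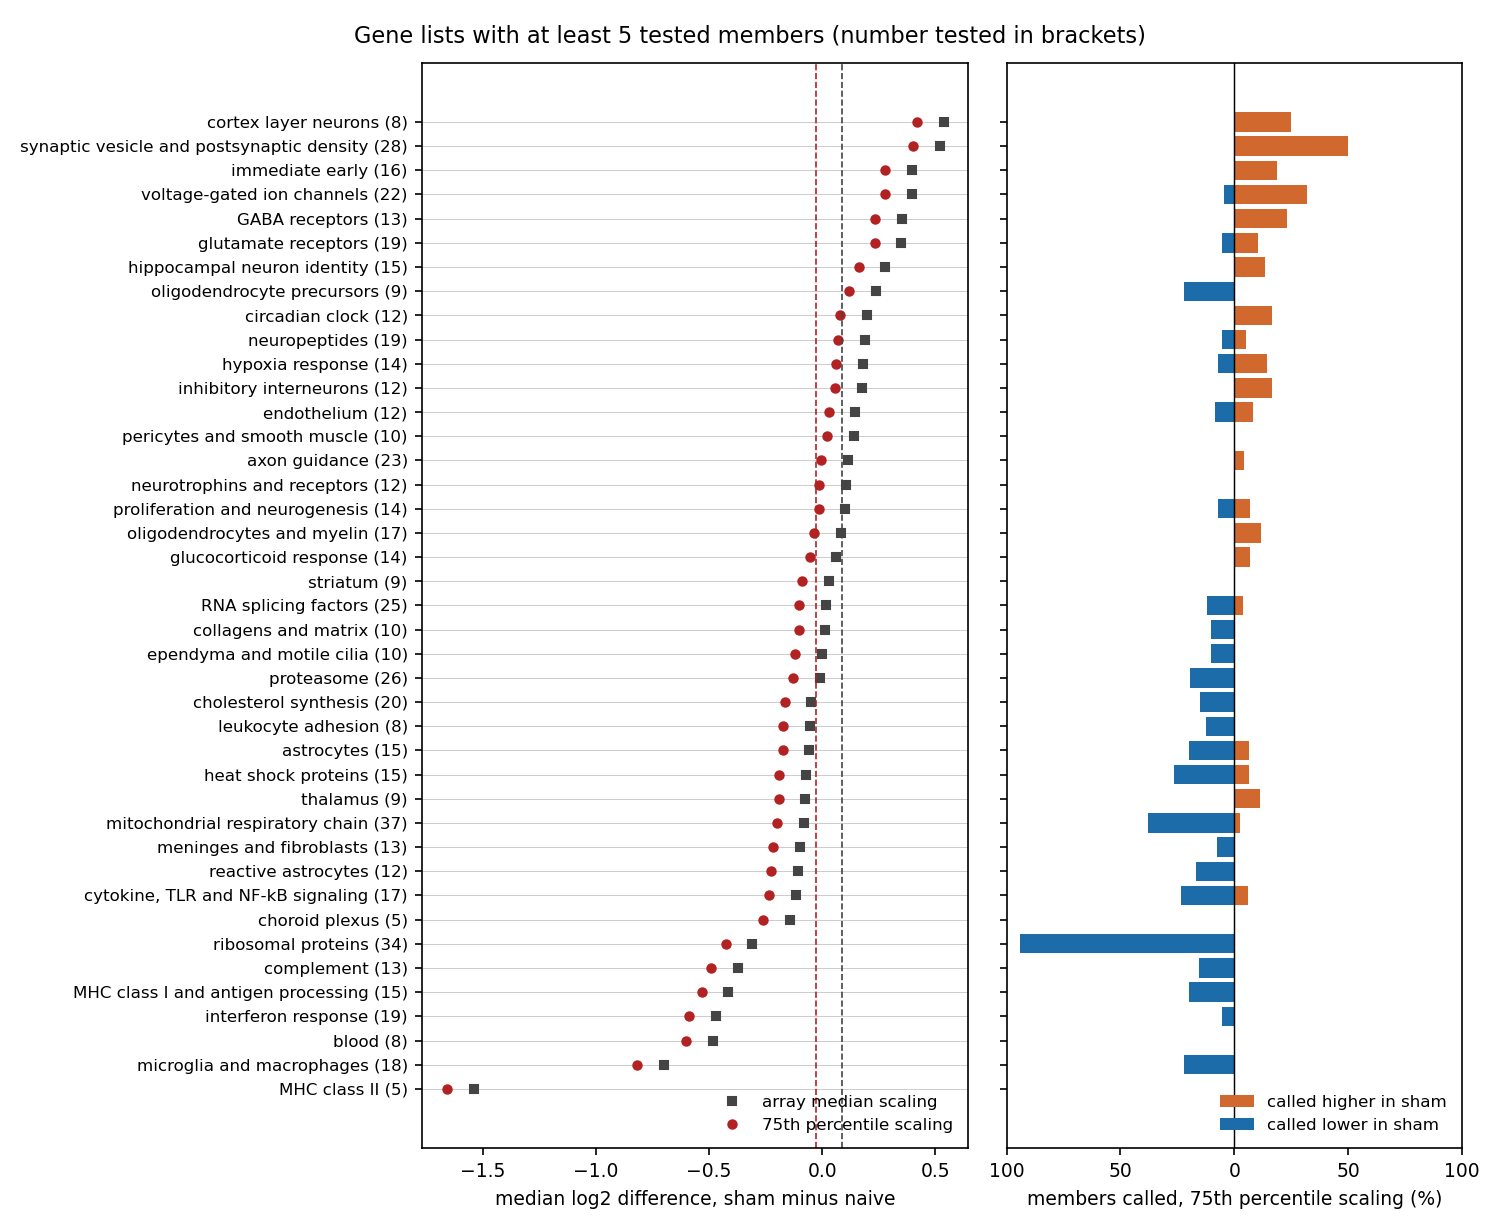
Gene lists with at least 5 tested members, the number tested in brackets. The left panel gives the median log2 difference, sham minus naive, with median scaling (grey squares) and 75th percentile scaling (red circles), and the dashed lines mark the medians over all tested genes, 0.09 and -0.03. The right panel gives the percent of members called higher (orange) or lower (blue) in sham rats with the 75th percentile. The synaptic list has a median of 0.52 and 0.40 on the 2 scales, the ribosomal protein list -0.31 and -0.43, and MHC class II the lowest median, -1.54 and -1.66, with no member called.

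Immune genes made up most of the named genes that were lower in sham rats, and there 1 naive rat weighed heavily. Cd74, the invariant chain that guides MHC class II molecules, read 3.63, 2.07, 10.64 and 5.14 in naive rats and 3.93, 3.51, 3.96 and 3.92 in sham rats. RT1-Da, the alpha chain of the class II molecule RT1-D, read 1.53, -0.24, 9.54 and 3.15 in naive rats and 1.4, 1.26, 1.85 and 1.61 in sham rats. In both genes naive replicate 3 was far above all other arrays, the groups overlapped, and the differences of -1.54 and -1.96 did not pass (adjusted p = 0.48 and 0.40). None of the 5 tested class II genes passed, and 4 of the 9 listed, including Ciita, the master regulator of the class, were below the filter. The median over the list was -1.54 on the median scale and 0.05 without naive replicate 3, and -1.66 and -0.13 with the 75th percentile. On the median scale it was -2.54 without naive replicate 2.

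RT1-Da and its partner chain RT1-Db1 were both highest in naive replicate 3, and so the promoters of both genes are shown here as RefSeq gives them for GRCr8, from 250 bases before to 50 after the start, at chr20:4515165-4515464 (plus strand) and chr20:4560113-4560412 (minus strand). Capitals mark the letters CTGATTGG, searched on both strands, which are those of the Y box of class II promoters and occur in 3.55% of 27457 promoters of the same length.
RT1-Da: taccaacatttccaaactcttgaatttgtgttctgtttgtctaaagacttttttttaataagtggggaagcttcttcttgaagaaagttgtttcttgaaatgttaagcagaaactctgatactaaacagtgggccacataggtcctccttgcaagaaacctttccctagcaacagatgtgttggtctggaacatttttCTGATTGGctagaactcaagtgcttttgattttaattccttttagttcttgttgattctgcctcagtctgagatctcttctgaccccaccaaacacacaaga
RT1-Db1: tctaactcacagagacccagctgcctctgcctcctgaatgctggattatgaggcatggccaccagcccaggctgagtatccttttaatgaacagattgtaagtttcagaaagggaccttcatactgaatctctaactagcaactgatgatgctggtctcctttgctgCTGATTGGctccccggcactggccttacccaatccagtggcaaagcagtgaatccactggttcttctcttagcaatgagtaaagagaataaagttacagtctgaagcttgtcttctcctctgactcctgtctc
Both sequences hold these letters, and the promoter of Cd74, searched in the same way, does not. This describes the letters and not any binding. RT1-Db1 read -2.48, -1.73, 4.63 and -0.83 in naive rats relative to the 75th percentile, and between -2.29 and -1.77 in sham rats, so that naive replicate 3 was again the highest array.

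Microglial genes were also highest in naive replicate 3. The mean level of 18 genes over the 75th percentile was 1.67, 1.50, 3.11 and 1.63 in naive rats and 1.14, 1.32, 1.21 and 1.00 in sham rats, with naive replicate 3 highest and all naive arrays above all sham arrays. With the median the groups overlapped, since naive replicate 2, at 4.54, lay below the sham arrays, at 4.76 to 5.08. All 18 differences were negative on both scales, with a median of -0.70 on the median scale and -0.82 with the 75th percentile. None passed with the median and 4 fell with the 75th percentile, among them Ctss, Trem2 and Gpr34, named after their values were seen. Without naive replicate 3, 8 fell with the 75th percentile and the list median was -0.46, while on the median scale it was -0.28 and none passed. Without naive replicate 2, 8 fell on either scale and the medians were -1.09 and -1.01. The summed intensity of the list, relative to the 75th percentile, ran from 98.2 to 398 in naive rats and from 71.2 to 90.9 in sham rats. Of the 19 interferon response genes 16 were negative on the median scale, of the 15 MHC class I and antigen processing genes 11, and of the 13 complement genes 11, and none of these passed with the median. With the 75th percentile 1, 3 and 2 of them fell, where 8.56% of all genes were called lower. Without naive replicate 3, on the median scale, 9, 8 and 7 were negative and the list medians went from -0.47, -0.42 and -0.37 to 0.03, -0.05 and -0.03. The list medians were -0.78, -0.66 and -0.69 without naive replicate 2, against -0.10 over all genes, and 2, 4 and 2 genes fell. Leaving out that array also raised the count over all probes from 728 to 2864, most of them lower. T cell genes were largely below the filter, 11 of 14, among them Cd3d, Cd3g and Cd8a, as were 10 of 11 neutrophil genes on the array.

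The named genes that fell on both scales were, apart from Caprin1, mostly genes of immune cells, in which naive replicate 3 was highest. The naming rule asked for all naive rats above all sham rats, so that this separation was fixed by the choice. Of 37 probes that fell on both scales, 26 had it. Tlr7, an endosomal sensor of single-stranded RNA, read 0.69, 0.20, 2.64 and 2.02 in naive rats and -0.91, -0.05, 0.10 and -0.17 in sham rats. It was lower in sham rats by -1.64 ± 0.35 (adjusted p = 0.00756), with 2 of 4 sham arrays well above background. Lat2, an adaptor of immune receptors, read 2.28, 2.13, 4.68 and 3.71 against 1.93, 1.58, 1.38 and 1.86 in sham rats, a difference of -1.52 (adjusted p = 0.0156). Il18, a cytokine released through inflammasomes, read 2.25, 1.52, 3.75 and 1.96 against 1.43, 1.14, 0.89 and 0.94, a difference of -1.27 (adjusted p = 0.0176). For Il18 the lowest naive rat and the highest sham rat were only 0.09 apart. Gpr183, an oxysterol receptor of leukocytes, differed by -1.42, Sp140, a nuclear body protein of leukocytes, by -1.41, Ms4a6bl1, of the MS4A family, by -1.23, Cd40, a costimulatory receptor, by -1.22, and Apol9a, of the apolipoprotein L family, by -0.92. Gpr183 was well above background in 3 of 4 sham arrays and Apol9a in 3 of 4 naive arrays. With Tlr7 and Il18, Tlr4 made 3 called genes of 17 in the list of cytokines, Toll-like receptors and NF-kB, at -1.66, and it was named after its value was seen since its groups were not apart.

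Caprin1 had the largest fall among the named genes. It encodes an RNA-binding protein of neuronal RNA granules that takes part in stress granules. It read 4.60, 3.59, 3.74 and 3.54 in naive rats and 1.35, 1.45, 1.15 and 1.33 in sham rats. The lowest naive array lay more than 2 log2 units above the highest sham array, and the difference was -2.54 ± 0.32 (adjusted p = 0.00015), or 5.83-fold lower, on the median scale and -2.66 (adjusted p = 0.0018) with the 75th percentile. All arrays were well above background, and the value rests on 1 probe.

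Markers of other tissues were looked at for a difference in dissection or blood content. The 8 tested blood genes were all lower in sham rats on both scales without any passing, with a median of -0.48, or -0.72 with 1 passing without naive replicate 2 and -0.51 with 1 passing without naive replicate 3. Their summed intensity over the 75th percentile ran from 161 to 249 in naive rats and from 90.5 to 153 in sham rats. On the median scale these sums overlapped. Of 5 tested choroid plexus genes, 9 striatum genes and 9 thalamus genes none passed with the median, and Ttr, the main transcript of the choroid plexus, was at -0.36. Summed astrocyte genes ran from 367 to 475 in naive rats and from 354 to 404 in sham rats, relative to the 75th percentile. Gfap, which reactive astrocytes increase, was at 0.78 without passing. The part of blood or meninges in the differences of other genes was not tested.

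TBI rats of the same interval were read on the same scale for orientation. They lay on another slide, and a comparison of each group with the naive rats would share the naive arrays, so that the levels alone are given. Egr1 read 2.43, 3.08, 2.18 and 2.61 in TBI rats. Tbr1 read 1.18, 1.87, 1.65 and 1.80. Caprin1 read 1.51, 1.43, 1.68 and 3.47, with TBI replicate 4 at the level of the naive rats and the other 3 near the sham rats. Tlr7 read 0.32, 0.69, 0.93 and 0.90, above all 4 sham rats. The MHC class II list read -0.60, 0.11, 0.67 and 0.29 over the 75th percentile in TBI rats, where sham rats had read -0.40, -0.51, -0.38 and -0.14.

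The cortex of naive and sham rats at 6 months offers the nearest comparison, since these arrays also share a slide with the naive arrays in the first row and the sham arrays in the second. Taken alone, the cortex gave 3 called probes of 22973 (0.0131%) with the median and 0 (0%) in limma with the 75th percentile, where 1925 probes had an unadjusted p under 0.05. This fit held naive and sham arrays only, and the same fit in the hippocampus gave 545 and 2602 of 20990 probes. The difference between the hippocampal and the cortical effect was tested as an interaction in limma that took all arrays as independent. It passed for 10 of 23271 probes (0.043%) with the median, all with a more positive effect in the hippocampus than in the cortex. With the 75th percentile it passed for 721 (3.1%), 254 higher and 467 lower. Of the 10, 5 had a gene name, which were Jph1 at 2.40, another probe of Srgap3 at 2.13, Tpm3 at 1.98, Ewsr1 at 1.98 and Miat at 1.74, named after their values were seen. Without hippocampal naive replicate 1 the count with the median was 174 and without naive replicate 2 it was 19. It was 4, 4 and 3 without hippocampal sham replicates 1, 2 and 3, 2, 5 and 6 without cortical naive replicates 1, 2 and 3, and 16 and 60 without cortical sham replicates 1 and 4. Egr1 differed between sham and naive cortex by -0.01, and the difference between both tissues, 1.78, did not pass with the median (adjusted p = 0.0565) and was 1.65 with the 75th percentile, where it passed (adjusted p = 0.0226). Cacna1a showed the same pattern, with 1.46 (adjusted p = 0.0774) and 1.33 (adjusted p = 0.0312). Both genes were chosen for their rise in the same hippocampal arrays, which favours a difference between tissues.

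Caprin1 was the named gene that fell in the cortex too. Its level there was 3.84, 4.0, 3.23 and 2.98 in naive rats and 0.92, 1.24, 1.13 and 0.69 in sham rats, again without overlap. The cortical difference was -2.52 ± 0.23 (adjusted p = 0.0257) with the median, and -2.50 with the 75th percentile, where it did not pass (adjusted p = 0.0987). The interaction was -0.03 with an SE of 0.35. By the methods' count of rats, both tissues of an interval came from the same animals. The labels do not say which hippocampal and cortical arrays share a rat, or whether replicate numbers match them. High class II transcripts also appeared in 1 cortical naive array, replicate 4, with a list level of 2.69 over the 75th percentile, where the other naive cortices had 1.16, -0.05 and -0.03. The high hippocampal array is replicate 3, at 4.54.

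**Figure D4:**
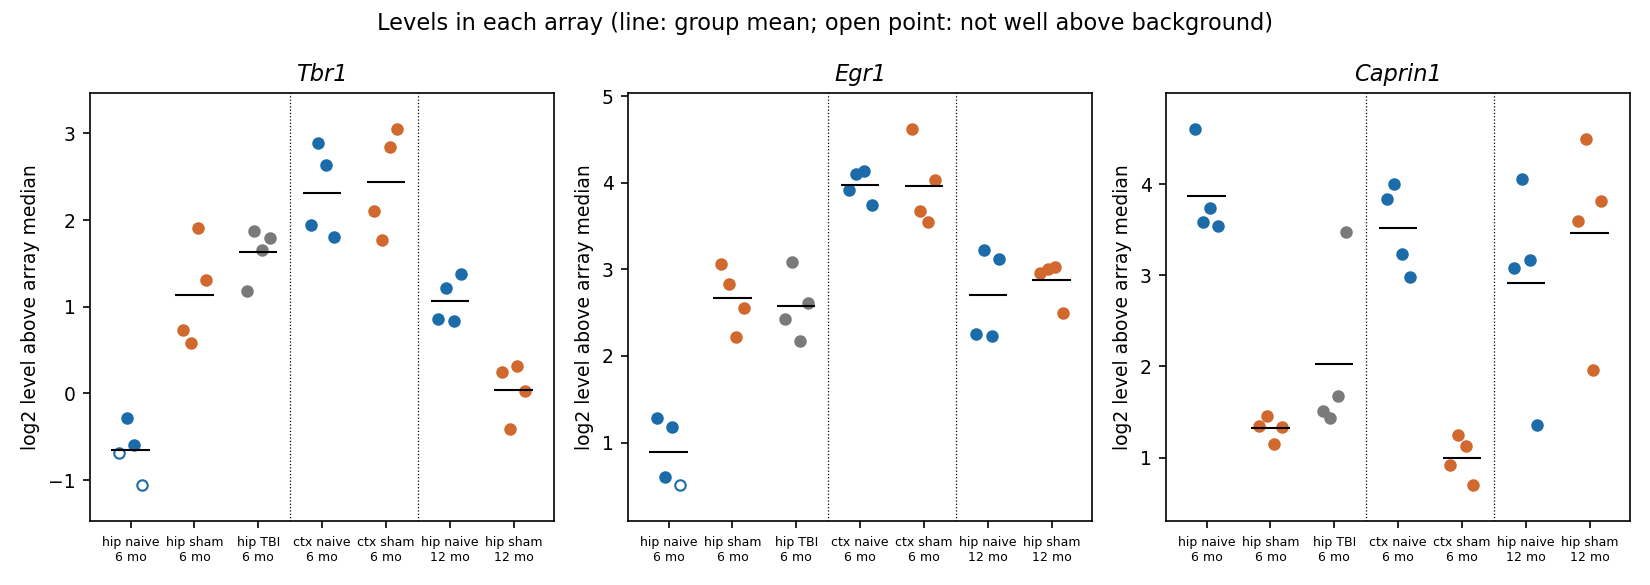
Levels of Tbr1, Egr1 and Caprin1 in single arrays of the hippocampus (hip) and cortex (ctx), as log2 intensity above the array median, with naive rats in blue, sham in orange and TBI in grey. Lines are group means, and open points were not well above background. Caprin1 is lower in all 6-month sham arrays than in all naive arrays of the same tissue, and its groups overlap at 12 months.

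The same contrast was made in the hippocampus at 12 months. Naive and sham arrays of that interval lie on different slides, so that slide and group cannot be told apart there. Taken alone, 563 of 25299 probes (2.23%) passed at 12 months with the median, 496 of them higher in sham rats, and 884 (3.49%) with the 75th percentile. That fit held naive and sham arrays only, and the same fit at 6 months gave 545 and 2602 of 20990 probes. The difference between the effects at 6 and 12 months passed for 1133 of 25314 probes (4.48%), 741 higher and 392 lower at 6 months, with the median, and for 4337 (17.1%), 1967 higher and 2370 lower, with the 75th percentile. The count with the median was 2715, 3008 and 738 without naive replicate 1, naive replicate 2 and sham replicate 4 of 6 months, 746 and 623 without naive replicates 2 and 4 of 12 months, and 610 and 656 without sham replicates 2 and 4 of 12 months. The named genes were chosen for their change in the 6-month arrays, which favours a difference between intervals. Tbr1, which rose at 6 months, fell at 12 months by -1.03 (adjusted p = 0.0292), and the effects differed by 2.82 ± 0.37 (adjusted p = 0.00068). The naive rats of 12 months read 0.85, 1.22, 0.84 and 1.38 and the sham rats 0.25, -0.42, 0.31 and 0.03. Egr1 differed by 0.17 at 12 months without passing, and its effects differed by 1.61 (adjusted p = 0.0178). Syp was at -0.25 at 12 months, and its effects differed by 1.41 (adjusted p = 0.00269). On the median scale, mean Syp levels were 3.94 in naive and 5.11 in sham rats of 6 months, against 5.42 and 5.18 at 12 months. For Egr1 they were 0.89 and 2.67, against 2.70 and 2.87. In both genes the naive rats of 6 months stood lowest, and TBI rats of 6 months, at 5.24 and 2.57, lay near the sham rats. For Caprin1 the naive rats of 12 months read 3.07, 4.05, 3.17 and 1.36 and the sham rats 3.59, 4.49, 1.96 and 3.82. These groups overlapped, and the effects of both intervals differed by -3.10 (adjusted p = 0.0143).

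**Figure D5:**
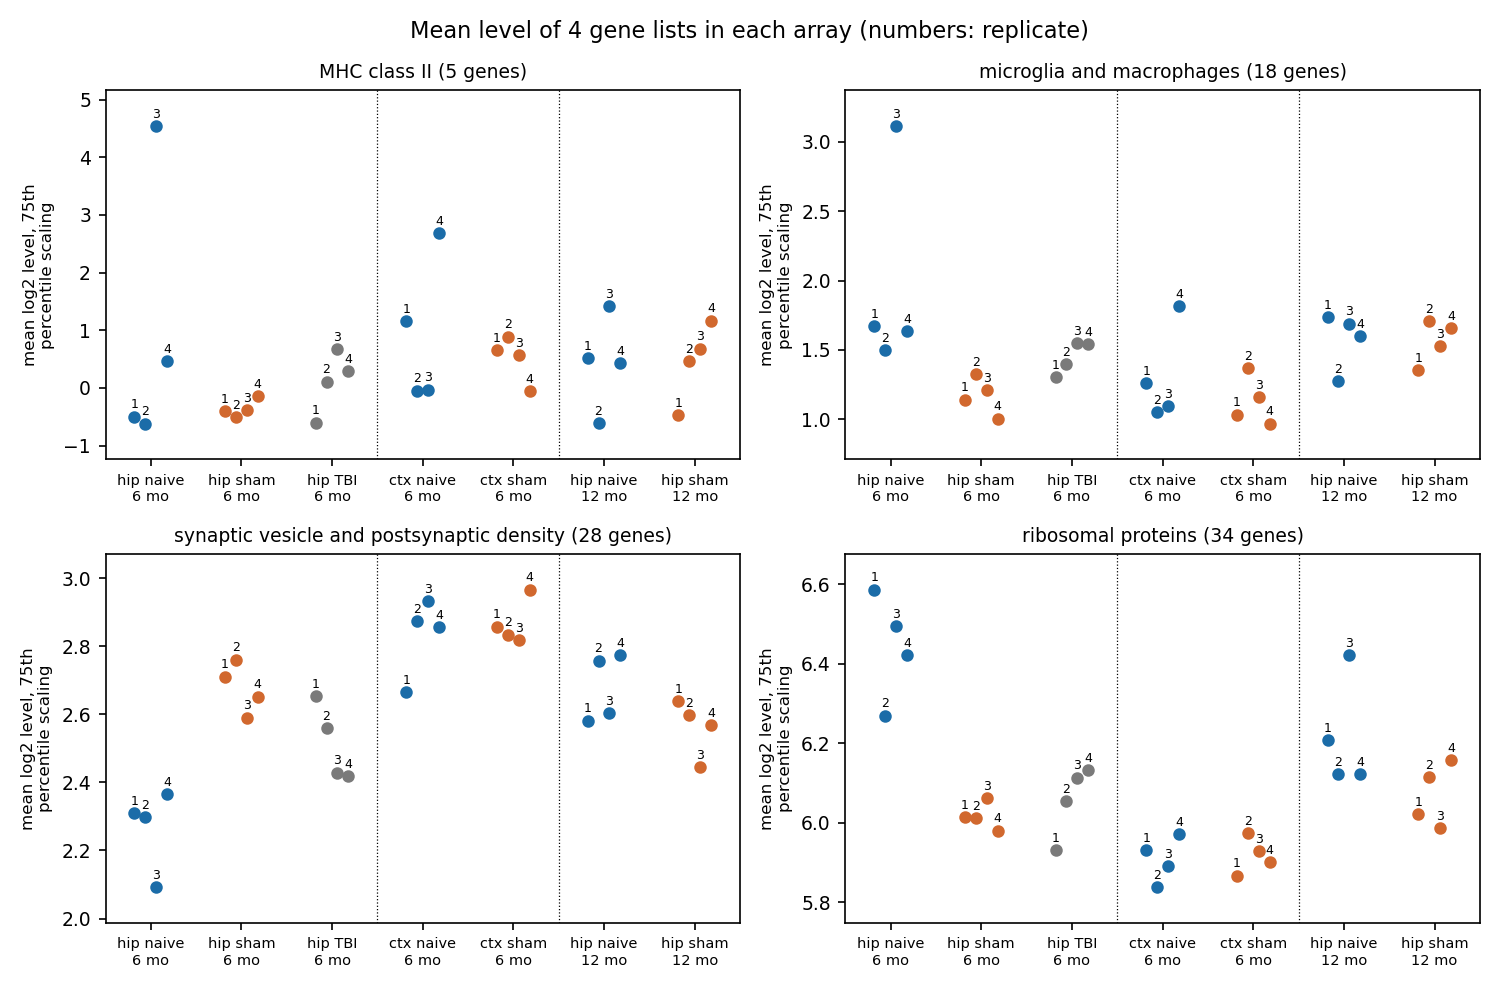
Mean level of the genes of 4 lists in each array of the hippocampus (hip) and cortex (ctx), as log2 intensity relative to the 75th percentile of the array, with naive rats in blue, sham in orange and TBI in grey. Numbers are replicates. The naive hippocampal arrays of 6 months have the lowest synaptic levels shown, at 2.09 to 2.37, and naive replicate 3 has the highest MHC class II level, at 4.54.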

How the data were processed

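Rat brain RNA, amplified and labelled with 1 dye, was hybridized to an Agilent array of 45598 probes, 1 rat per array. The authors deposited spot intensities from Agilent Feature Extraction 11.5.1.1, background-subtracted and detrended within the array and not normalized between arrays, with flags for probes well above background. They also deposited a table of linear intensity divided by 1 constant per array, near the 75th percentile, although the methods name the median. Here the processed signal was taken as log2, spots of a probe were averaged, and the array median, or the 75th percentile, was subtracted. Gene names came from a RefSeq table and covered 21109 probes (46.3%). A probe was tested when all arrays of either group had it well above background, using limma 3.58.1 in R 4.3.3 (lmFit, contrasts.fit, eBayes), naive, sham and TBI arrays in 1 model, with Benjamini-Hochberg adjustment and a threshold of 0.05. Region and interval differences were interaction contrasts. Their models, and those of the cortex alone and of 12 months alone, held no TBI arrays.

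Named genes have 1 gene name, passed with the same sign and without overlap on both scales, and were the 12 largest rises, the 12 largest falls (9 existed) and up to 3 genes for each of 43 lists, each gene read from its brightest tested probe; further genes were named for their level or, as stated, after their values were seen. Members and lists were chosen with earlier results of these data known. The methods call the 4 rats of a group independent biological replicates. The number of arrays limits the precision. Alternatives were other scalings, the authors' table, normexp background correction (on the median spot signal, offset 50), filters, array weights, a replicate block and each array left out. The tests were tried on simulated data. Of the 34 genes so chosen, 32 are printed and the others are not reported here.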

Additional observations from a re-analysis of the deposited data

Results flagged for a closer look

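In a group of 4 arrays, the gap of 1 array to its nearest neighbour, divided by the range of the group, is called large above Dixon's critical value, which chance exceeds in about 1 of 20 groups. Among naive arrays the ratio was 0.936 for Prrt1, 0.859 for Dnm1 and 0.888 for Slc32a1, each with naive replicate 1 as the far array, and 0.949 for Bicra with naive replicate 4. Bicra also had a ratio of 0.942 among sham arrays, for sham replicate 1. The share of control spots well above background had a ratio of 0.986 among the naive arrays, for naive replicate 2.

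The sham effect differed between hippocampus and cortex at 6 months for 10 probes, and between 6 and 12 months in the hippocampus for 1133 probes, by interaction contrasts in limma with median scaling. Named genes were chosen for their change in the same 6-month arrays, which favours a difference between intervals. Over all 25314 probes 4.48% passed, with 741 higher and 392 lower at 6 months. Naive and sham arrays of 12 months lay on different slides. For 19 named genes that rose at 6 months the difference between intervals passed. Among the genes of transcription, channels and synapses it was 2.82 for Tbr1, 1.61 for Egr1, 1.64 for Cacna1a, 1.63 for Srgap3, 1.88 for Prrt1, 1.50 for Dnm1, 1.41 for Syp, 1.19 for Hcn2, 1.23 for Slc17a7 and 1.48 for Slc32a1. It was 1.78 for Fzr1, 1.54 for Dnajc16, 1.85 for Bcl2l1, 1.69 for Borcs5, 1.44 for Nr1d1, 1.11 for Hk1, 0.97 for Aldoa, 1.27 for Mobp and 1.20 for Fa2h. In each of these 19 genes the naive rats of 6 months had the lowest mean of the hippocampal groups read here, on the median scale. Of the genes that fell, Il18 differed by -1.80 and Caprin1 by -3.10.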

How the results depend on the processing

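The count of probes that differed between sham and naive rats, 728 with the median, was 3865 with the 75th percentile, 3951 with the median of detected probes, 4037 with quantile normalization, 3906 by the authors' table, 1680 with normexp, 430 when every array had to be well above background, 5 without a filter (3540 at an unadjusted p under 0.05) and 0 with array weights (2058 at an unadjusted p under 0.05). Leaving out 1 array gave 370 to 2864. With the 75th percentile it gave 3400, 4286, 3214 and 2839 for naive replicates 1 to 4 and 2971, 2670, 2978 and 2635 for sham replicates 1 to 4. Without naive replicates 2 and 3 together, a choice made after seeing the data, it was 1790, and 3453 with the 75th percentile. With naive and sham arrays only it was 545, and 2602 with the 75th percentile. The count past 1.4-fold, 2828, was 1727 with normexp and 1689 with array weights. The causes were not tested.

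The replicate numbers were not taken to pair the rats, since deviations of arrays with the same number correlated at 0.10, 0.09, 0.14 and -0.16 and 2 of 4 naive arrays correlated best with their own number. With the replicate block the count was 961, and 3469 with the 75th percentile, and all 34 genes chosen by the naming rule stayed past the threshold. In the region difference the block gave 8 and in the interval difference 774.

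The count for hippocampus against cortex, 10, was 721 with the 75th percentile, 786 with detected probes, 448 with quantile normalization, 736 by the authors' table, 360 with normexp, 0 without a filter (2293 at an unadjusted p under 0.05), 0 with array weights (2004), 4 with the replicate number as a random block, and 2 to 174 with 1 array left out. With the 75th percentile it was 1281 without naive replicate 2 and 258 without naive replicate 3. For 6 against 12 months, 1133 became 4337, 4447, 4471, 4311 and 1799 in the same order of scalings, 328 without a filter, 5263 with array weights and 610 to 3008 with 1 array left out. With the 75th percentile it was 4625 without naive replicate 2 and 3777 without naive replicate 3.

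List genes called, 26 with the median, numbered 144 with the 75th percentile and 112 and 19 without naive replicate 2 or 3, 73 without replicates 2 and 3, and with the 75th percentile 149, 130 and 134 without replicate 2, replicate 3 and both. Over all genes 2.6% passed with the median and 16.1% with the 75th percentile. Over all probes the median-scaled count, 728, was 2864 without naive replicate 2 and 625 without naive replicate 3. The list counts thus moved with the counts over all features. Without naive replicate 2 the difference in the share of probes above background turned to 2.26 percentage points, and that between percentiles to -0.0776. With 1 array left out they ranged from -8.17 to 2.26 and from -0.0776 to 0.245. Of 635 values of the 34 genes chosen by the naming rule under the alternatives, 487 stayed past the threshold, 148 fell short of it and 0 changed sign. These genes had been chosen for passing on both scales without overlap. Their passing with the 75th percentile, and their signs with 1 array left out, were therefore fixed in advance. Without a filter and with array weights all 34 genes fell short. Without naive replicate 3, 9 of them fell short, and without naive replicate 4, 12. Of the printed genes, Fa2h fell short in 10 of 19 alternatives, Aldoa, Cd40 and Ms4a6bl1 in 9 of 19 and Ptgs2 in 9 of 18. Prrt1 and Dnm1 fell short in 2 of 19. Dim probes, and Tbr1, Egr1, Cacna1a, Dnajc16 and Tlr7 among them, were near background in part of the arrays, which limits their values.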
